A study of Mus musculus with 4 samples.

Results

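The genes described here are Ramp3, a partner protein of calcitonin-family receptors, its relative Ramp1, their shared receptor Calcrl, and 7 genes that make, break down or respond to cyclic AMP (cAMP), the small messenger made when those receptors are engaged. The 10 genes are Ramp1, Ramp3, Calcrl, Pde3b, Pde4a, Pde4b, Pde4d, Pde7a, Adcy7 and Crem, out of 17478 genes listed in at least 1 library. Ramp3 was picked because it is strongly higher in the knockout, so its difference between the genotypes is given as a description with no test. The other 9 were picked by their role, with earlier results of these data known. All 10 were listed in all 4 libraries and passed the filter on low counts, which kept 12677 genes.

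The samples are RNA of cultured mouse CD4+ T cells, 2 libraries of wild-type origin and 2 from animals deficient in Bfar, a ubiquitin ligase of the endoplasmic reticulum. Both groups were C57BL/6 mice aged 6 to 8 weeks, and both supplied naive CD4+CD44loCD62Lhi cells, sorted from spleen and lymph nodes, that were activated with anti-CD3 and anti-CD28 in a Th9 differentiation condition for 3 days. Th9 cells are the helper T cells named for their cytokine, interleukin 9. The knockout is labelled BFAR-/- and described as conditional to T cells. Not given in the sources used here are the driver of the deletion, the deleted exons, the cytokines of the culture, and whether each library came from 1 mouse or from several. The spread behind the p-values is thus that between these libraries, and it may be technical.

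Receptor activity-modifying proteins (RAMPs) are small single-pass membrane proteins that pair with class B G protein-coupled receptors and set which peptide the pair binds. Calcrl with Ramp1 forms the receptor for calcitonin gene-related peptide (CGRP), and Calcrl with Ramp2 or Ramp3 forms receptors for adrenomedullin. These receptors act through the G protein Gs, which turns on adenylyl cyclases such as Adcy7. Phosphodiesterases (the Pde genes) hydrolyse cAMP, and protein kinase A, which cAMP turns on, phosphorylates transcription factors of the CREB family, of which Crem is a member. In T cells cAMP is known mainly as a brake on signalling from the antigen receptor.

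The sequences just upstream of the start sites are shown for the receptor genes, which moved in opposite directions, and for the 3 of the 10 genes, Pde4a, Pde4b and Adcy7, with a window that holds a core cAMP response element. The windows are the 250 bases before an annotated start (RefSeq, GRCm38.p6), 5′ to 3′ on the strand of the gene, and capitals mark the core element TGACG or its reverse complement CGTCA.
Ramp3, chr11:6658283-6658532, plus strand, running past the outer start of the gene: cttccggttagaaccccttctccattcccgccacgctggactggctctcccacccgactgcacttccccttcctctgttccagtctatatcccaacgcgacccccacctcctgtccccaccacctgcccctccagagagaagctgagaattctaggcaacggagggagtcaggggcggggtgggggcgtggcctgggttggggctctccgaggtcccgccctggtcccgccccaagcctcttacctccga
Ramp1, chr1:91179572-91179821, plus strand: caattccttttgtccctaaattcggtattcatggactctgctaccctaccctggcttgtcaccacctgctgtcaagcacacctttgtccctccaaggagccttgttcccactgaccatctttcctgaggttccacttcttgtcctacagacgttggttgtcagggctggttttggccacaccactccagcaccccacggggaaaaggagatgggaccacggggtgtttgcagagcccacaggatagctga
Calcrl, chr2:84425267-84425516, minus strand, running past the outer start of the gene: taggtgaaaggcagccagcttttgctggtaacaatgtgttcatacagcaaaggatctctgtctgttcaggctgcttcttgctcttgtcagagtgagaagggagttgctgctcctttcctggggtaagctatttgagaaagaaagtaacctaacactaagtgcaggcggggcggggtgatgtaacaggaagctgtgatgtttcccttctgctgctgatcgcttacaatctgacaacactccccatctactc
Pde4a, chr9:21183851-21184100, plus strand, a start inside the gene: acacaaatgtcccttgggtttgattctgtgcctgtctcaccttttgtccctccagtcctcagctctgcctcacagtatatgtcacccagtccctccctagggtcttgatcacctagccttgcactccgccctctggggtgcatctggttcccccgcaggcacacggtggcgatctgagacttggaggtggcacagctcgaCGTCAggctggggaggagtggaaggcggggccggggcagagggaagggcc
Pde4b, chr4:102421305-102421554, plus strand, a start inside the gene: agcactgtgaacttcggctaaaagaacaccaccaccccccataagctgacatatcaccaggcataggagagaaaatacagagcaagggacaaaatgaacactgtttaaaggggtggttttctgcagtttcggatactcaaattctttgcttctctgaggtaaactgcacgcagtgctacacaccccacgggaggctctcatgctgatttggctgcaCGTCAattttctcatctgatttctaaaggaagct
Adcy7, chr8:88282742-88282991, plus strand, a start inside the gene: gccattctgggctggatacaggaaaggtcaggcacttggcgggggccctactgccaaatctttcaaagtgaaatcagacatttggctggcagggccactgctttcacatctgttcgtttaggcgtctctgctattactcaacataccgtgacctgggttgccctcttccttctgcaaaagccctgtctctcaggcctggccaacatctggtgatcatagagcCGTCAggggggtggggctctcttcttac
The Ramp3, Ramp1 and Calcrl windows hold no core element. Those of Ramp3 and Calcrl lie partly within the gene, because the RefSeq locus begins upstream of the start used. The Pde4a window holds CGTCA from 50 to 46 bases before the start, the Pde4b window holds CGTCA from 34 to 30 bases before the start, and the Adcy7 window holds it from 28 to 24 bases before the start. RefSeq windows were matched for 7 of the 10 genes, 14 windows in all, because Pde4a, Pde4b and Adcy7 have several starts. Of these 14, 3 held TGACG or CGTCA (1 each of Pde4a, Pde4b and Adcy7), against 17.8% of all 32851 windows of this length. The full palindromic element TGACGTCA, which contains both core forms, was in none of the 14 and in 1.55% of all windows. The AP-1 element TGACTCA, or TGAGTCA on the other strand, was in 1 of the 14, another start of Adcy7, and in 4.46% of all. The Ramp3 window was rich in G and C (65.2%, with 13 CG pairs), above the 54.0% of Ramp1 and the 48.4% of Calcrl, where the median over all windows was 52.4% with 6 CG pairs. Such letter matches describe the sequence and do not show that a factor binds.

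The libraries held 19058009 to 19782923 expected counts, so depth hardly differed. Bfar had 36.4 and 32.9 CPM (counts scaled to the size of the library) in wild type and 8.45 and 7.79 in the knockout, and the 2 genotypes were therefore apart as labelled. Il9 was detected in every library, with 536.7 and 505.0 CPM in wild type and 237.9 and 270.2 in the knockout. All 9 markers of CD4 T cells were listed in every library, with summed levels of 2373 to 2389 CPM in wild type and 2573 to 2620 in the knockout. In the edgeR test described below, 6 of the 9 were higher in the knockout and 1, Cd5, was lower. Of all tested genes, 13.6% were higher and 13.2% lower. Markers of other cells are given where they bear on a gene below.

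Of the 9 genes other than Ramp3, 5 rose in the knockout (Pde3b, Pde4a, Pde4b, Pde4d and Crem), 3 fell (Ramp1, Calcrl and Adcy7) and Pde7a did not pass. The test throughout is the edgeR quasi-likelihood test, two-sided, on counts, with p adjusted over all 12677 tested genes and a threshold of 0.05. Of all tested genes, 26.8% passed, 13.6% higher and 13.2% lower in the knockout. Because the set was put together with results of this comparison known, the count of the 9 is given beside that share and nothing is read from it. The wild-type and knockout CPM ranges did not overlap for any of the 10 genes, and the same held for 63.5% of all tested genes, 31.6% higher and 31.9% lower in the knockout.

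**Figure D1:**
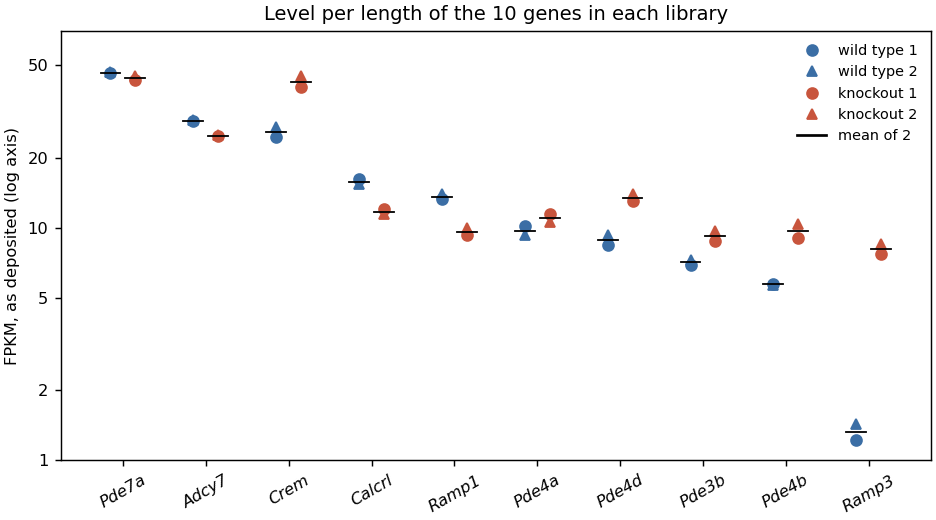
FPKM values as deposited (log axis) for the 10 genes in the 4 libraries, ordered by the wild-type mean; circles are replicate 1, triangles replicate 2, and black lines the mean of 2 libraries. Ramp3 sits at 1.22 and 1.43 in wild type and at 7.73 and 8.49 in the knockout, while Pde7a stays highest in wild type and shares the top with Crem in the knockout.

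Ramp3 (gene 56089, chromosome 11, 6658506 to 6677478, GRCm38), the RAMP that gives Calcrl affinity for adrenomedullin, was low in wild-type cells and clearly present in knockout cells. Its counts were 29 and 34 in wild type, against 180 and 195 in the knockout. The 95% Poisson intervals, which cover counting error only, were 19.4 to 41.6 and 23.5 to 47.5 counts in wild type and 154.7 to 208.3 and 168.6 to 224.4 in the knockout. The libraries within each genotype lie inside one another's intervals. The gap between the genotypes is the difference for which Ramp3 was picked, so the intervals are no test of it. In CPM the level went from 1.59 ± 0.182 to 9.80 ± 0.664 (SD, n = 2), a ratio of 6.15. The fitted log2 difference was 2.62 ± 0.17 (SE). Leaving out any 1 library gave 2.50 to 2.74. With log2(FPKM + 1) in place of counts the difference was 1.97, because the added 1 is of the same size as the wild-type level. The tables give 1 transcript for Ramp3. A listed neighbour, Gm11978, overlaps it and shares 5.4% of its 31-base stretches on either strand, and that neighbour had 0 counts in 3 libraries and 1 in the fourth.

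Ramp1 (gene 51801, chromosome 1, 91179822 to 91225196), the RAMP of the CGRP receptor, moved the other way. It had 27.1 and 26.2 CPM in wild type and 18.6 and 21.1 in the knockout, so both knockout libraries were below both wild-type libraries. The log2 difference was -0.43 ± 0.08 (SE, n = 2 per group), with an edgeR adjusted p of 0.00128. The adjusted p ranged from 0.00028 to 0.0511 over the alternative settings, and the value above the threshold came without knockout replicate 1, where the difference was -0.34. Ramp2, the remaining family member, had 1 count in wild type 1 and none elsewhere, and 3 counts correspond to 0.152 to 0.157 CPM in these libraries.

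Calcrl (gene 54598, chromosome 2, 84330626 to 84425405), the receptor that both RAMPs partner, was lower in the knockout as well. Its levels were 77.4 and 74.1 CPM in wild type and 57.8 and 55.2 in the knockout. The log2 difference was -0.42 ± 0.05, with an edgeR adjusted p of 2.33e-05. The calcitonin receptor gene Calcr, whose product is another receptor that RAMPs partner, had too few counts to be tested (10 and 5 in wild type, 2 and 3 in the knockout). The receptor and the RAMP of the CGRP pair thus fell by similar factors, to 0.746 and 0.745 of their wild-type means, while Ramp3 was higher.

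On the FPKM scale, which is per length, Ramp1 made up 91.2% and 90.7% of the summed RAMP level in wild type and 54.6% and 54.0% in the knockout. Ramp3 made up 8.38% and 9.32% in wild type and 45.4% and 46.0% in the knockout. RAMP transcripts of wild-type cells were therefore mostly Ramp1, and those of knockout cells were split nearly evenly between Ramp1 and Ramp3. The ratio of Ramp1 to Calcrl FPKM overlapped between the genotypes, at 0.823 and 0.902 in wild type and 0.773 and 0.870 in the knockout. The ratio of Ramp3 to Calcrl was 0.0756 and 0.0926 in wild type and 0.644 and 0.742 in the knockout. These are ratios of transcript levels, and the shares of Ramp3 follow from the difference for which it was picked.

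**Figure D2:**
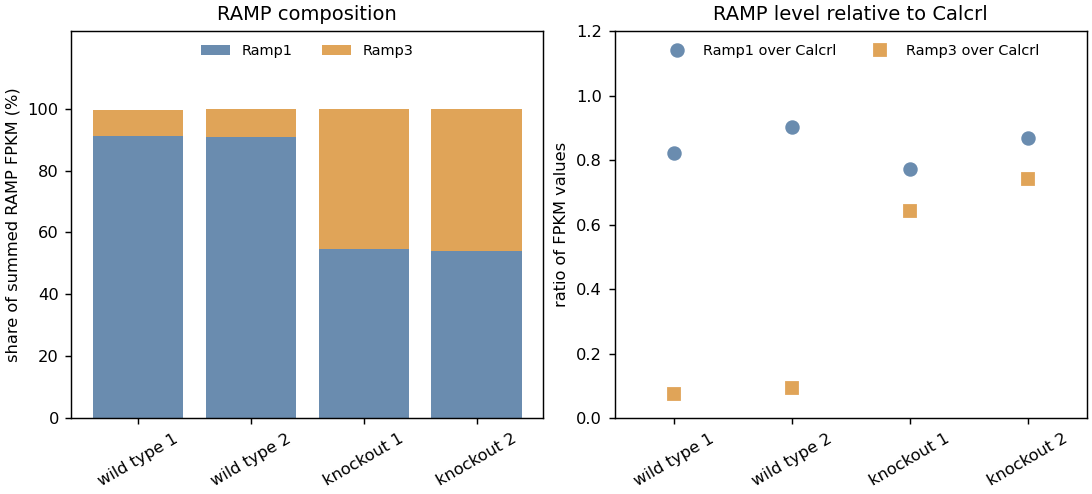
Left, share of the summed FPKM of the RAMP genes (percent) taken by Ramp1 and Ramp3 in each library; Ramp2, at most 0.41%, is not drawn. Right, the ratio of Ramp1 or Ramp3 FPKM to Calcrl FPKM in each library. Ramp3 rises from 8.38% and 9.32% of the sum to 45.4% and 46.0%, and the Ramp1 to Calcrl ratio overlaps between the genotypes.

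The genes of the peptides that bind these receptors had few or no counts. Calca, which encodes calcitonin and CGRP, had 19 and 8 counts in wild type and 27 and 30 in the knockout. Calca rose, with a log2 difference of 1.12 ± 0.37 and an edgeR adjusted p of 0.0379. That call was lost without wild type replicate 2 (adjusted p = 0.342, log2 difference 0.60), knockout replicate 1 (0.143) or knockout replicate 2 (0.221) and in DESeq2 (0.226), and the adjusted p ranged from 0.0222 to 0.342 over all settings. Adm, which encodes adrenomedullin, had 42 and 60 counts in wild type and 67 and 80 in the knockout, with a log2 difference of 0.57 ± 0.21 (adjusted p = 0.0569). Adm2 had -0.19 ± 0.22 (adjusted p = 0.57), and Calcb and Iapp were listed in none of the 4 libraries. Of the calcitonin-family list, 4 genes besides Ramp1, Ramp3 and Calcrl were tested, and Calca was the 1 that passed (25%, against 26.8% of all tested genes).

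Calcrl and the RAMPs are also known from blood and lymph vessels, so the endothelial markers were read beside them. Of 8 such markers, Cdh5, Kdr, Emcn and Cldn5 were listed in no library, and Tek, Lyve1 and Prox1 were at or below 0.363 CPM in each. The summed level of the 4 listed markers was 16.9 to 18.1 CPM in wild type and 25.8 to 25.9 in the knockout. Nearly all of it was Pecam1, an adhesion molecule that T cells carry too, with 17.9 and 16.7 CPM in wild type and 25.4 and 25.8 in the knockout. Of 6 stromal markers, Col3a1 and Dcn were listed in no library, and the summed level of the other 4 was 42.2 to 45.9 CPM in wild type and 23.3 in both knockout libraries, nearly all of it Pdpn. The summed dendritic cell markers, mostly Cd74, went from between 110.2 and 114.0 to between 89.5 and 97.1 CPM. Within that list Xcr1 went the other way, from 1.21 and 1.01 to 2.38 and 2.63 CPM (edgeR adjusted p = 0.00352). The summed B cell markers were at most 6.93 CPM, and those of monocytes and macrophages at most 5.81, natural killer cells at most 3.79, and CD8 T cells at most 11.6. Of 7 granulocyte and mast cell markers 3 were listed, with summed levels of 1.42 to 1.51 CPM in wild type and 3.37 to 3.58 in the knockout. Nearly all of that was Kit, which rose from 1.51 and 1.32 to 3.58 and 3.32 CPM (adjusted p = 0.000608), while Fcer1a and Cpa3 were listed in no library. The part of these cells in the results was not tested. In bulk RNA, a change in the number of cells of a type and a change in RNA per cell cannot be told apart.

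Adcy7 (gene 11513, chromosome 8, 88272190 to 88329965), an adenylyl cyclase found widely in blood cells, was the leading cyclase gene on the FPKM scale, with 63.5% and 64.9% of the summed cyclase FPKM in wild type and 59.3% and 57.7% in the knockout. It had 174.3 and 175.4 CPM in wild type and 150.9 and 152.8 in the knockout. The libraries of a genotype were close together and the genotypes well apart, and the log2 difference was -0.20 ± 0.04 (edgeR adjusted p = 0.00127). Its locus overlaps that of Brd7, but the transcripts shared only 0.2% of 31-base stretches with other listed genes. The other cyclase genes with sizeable levels, Adcy3 and Adcy6, had log2 differences of 0.17 ± 0.07 (adjusted p = 0.0676) and 0.14 ± 0.06 (adjusted p = 0.11). Of the 5 tested cyclase genes besides Adcy7, 0 passed in the main edgeR fit or in DESeq2. Adcy3 and Adcy6 had an unadjusted edgeR p under 0.05 (0.0201 and 0.0386). With the replicate number as a block, edgeR called 1 cyclase gene higher, opposite to Adcy7.

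**Figure D3:**
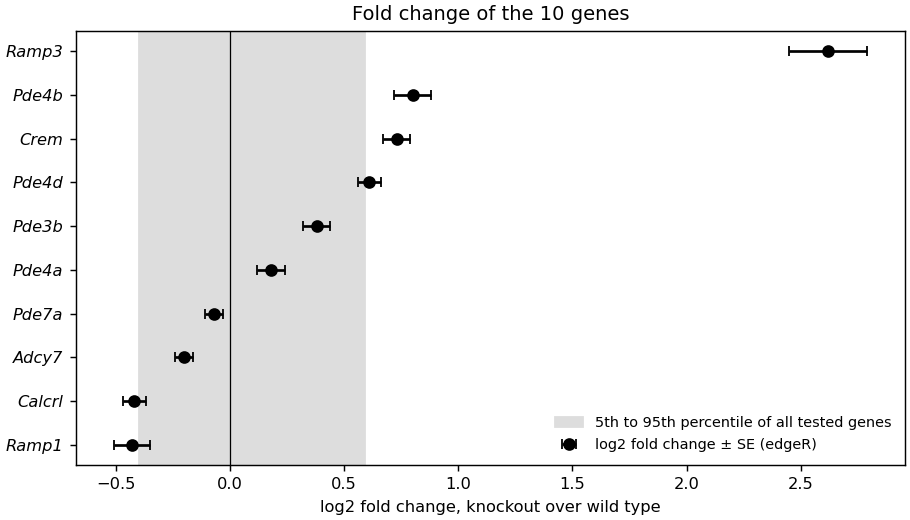
Fitted log2 fold change, knockout over wild type, of the 10 genes with its SE (edgeR, 2 libraries per group); the grey band runs from the 5th to the 95th percentile of all tested genes, -0.40 to 0.59. Ramp3 at 2.62 is far outside the band, Pde4b, Crem and Pde4d lie beyond its upper edge, and Calcrl and Ramp1 lie just beyond its lower edge.

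The phosphodiesterases that hydrolyse cAMP did not move alike. Pde4b and Pde4d, cAMP-specific enzymes of the PDE4 family that are known to be induced by cAMP itself, showed the larger rises among the 5 phosphodiesterases of the set. Pde4b (gene 18578, chromosome 4, 102087332 to 102607275) had 20.9 and 20.7 CPM in wild type and 33.5 and 38.7 in the knockout. The rise of 0.80 ± 0.08 in log2 (edgeR adjusted p = 4.22e-06) is a ratio of 1.74. Pde4d (gene 238871, chromosome 13, 108654177 to 109955969) had 60.1 and 66.1 CPM in wild type and 92.8 and 99.6 in the knockout. The groups are again well apart, with a rise of 0.61 ± 0.05 (adjusted p = 1.30e-06), a ratio of 1.53. The tables give a single transcript for Pde4d, a gene with many, so reads from other forms may not have been counted.

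Pde3b (gene 18576, chromosome 7, 114415222 to 114537938), a phosphodiesterase that cyclic GMP inhibits, rose less. It had 37.1 and 39.0 CPM in wild type and 47.0 and 51.9 in the knockout, a rise of 0.38 ± 0.06 on the log2 scale (edgeR adjusted p = 0.000443). Pde4a (gene 18577, chromosome 9, 21165700 to 21213248), another gene of the PDE4 family, was close to the threshold. Its levels were 47.4 and 43.3 CPM in wild type and 53.3 and 49.4 in the knockout, so knockout replicate 2 was only slightly above wild type replicate 1. The rise of 0.18 ± 0.06 had an adjusted p of 0.0423. This call was lost on dropping either knockout library (0.303 without replicate 1, 0.0906 without replicate 2) or wild type replicate 2 (0.324), in DESeq2 (0.221) and in 3 further settings, with adjusted p from 0.0125 to 0.324 over all 13.

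Pde7a (gene 18583, chromosome 3, 19223108 to 19311322), a high-affinity cAMP phosphodiesterase of T cells, had the highest FPKM of the family in each library. It had 293.0 and 297.9 CPM in wild type and 274.4 and 287.5 in the knockout. Its log2 difference of -0.07 ± 0.04 had an edgeR adjusted p of 0.181 and passed in none of the 13 alternative settings. Among the 8 other tested genes of the family, Pde7b rose and Pde4c fell (25%, against 26.8% of all tested genes). Pde7b, a relative of Pde7a, had 16 and 15 counts in wild type and 37 and 45 in the knockout (log2 1.44 ± 0.29, adjusted p = 0.00211). Pde4c fell by 0.55 ± 0.13 (adjusted p = 0.00678), a call lost on dropping wild type replicate 1 (0.0716) or knockout replicate 2 (0.0856) and in DESeq2 (0.0943), with a range of 0.00253 to 0.0943 over all settings. The median log2 difference of the 13 tested phosphodiesterase genes was 0.38, against -0.002 over all tested genes. These 13 include the 5 of the set, which was put together with earlier results known, and 7 of the 13 were not called.

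As shares of the summed FPKM of the family, Pde7a went from 52.2% in both wild-type libraries to 44.6% in both knockout libraries. Pde4d went from 9.56% and 10.3% to 13.5% and 13.8%, and Pde4b from 6.50% and 6.33% to 9.32% and 10.3%. Pde4a, at 11.5% and 10.4% in wild type and 11.9% and 10.4% in the knockout, overlapped. The family sum was 88.3 and 89.7 FPKM in wild type and 96.4 and 101 in the knockout. The sum was thus slightly higher in the knockout, with a larger part from Pde4b and Pde4d and a smaller part from Pde7a.

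**Figure D4:**
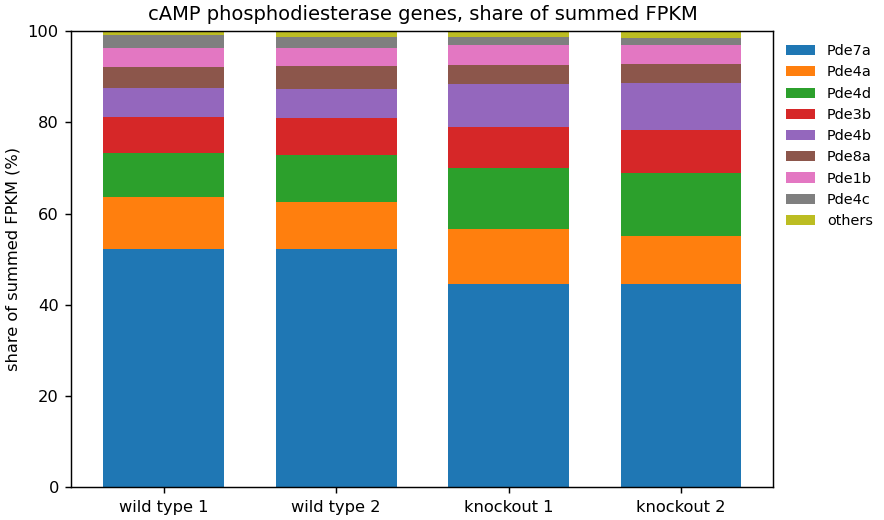
Share of the summed FPKM (percent) of the cAMP-hydrolysing phosphodiesterase genes taken by each gene in each library; the 7 genes with the least FPKM are pooled as others. Pde7a goes from 52.2% in both wild-type libraries to 44.6% in both knockout libraries, and the bands of Pde4d and Pde4b widen.

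Crem (gene 12916, chromosome 18, 3266354 to 3337773) encodes cAMP-responsive activators and repressors, among them ICER, a short repressor made from an internal promoter that cAMP turns on. It had 50.5 and 55.9 CPM in wild type and 83.6 and 92.4 in the knockout. Both knockout libraries were well above both wild-type libraries, and the rise of 0.73 ± 0.06 in log2 (edgeR adjusted p = 6.13e-07) is a ratio of 1.65. The tables combine 18 transcripts of Crem into 1 value, so the forms cannot be told apart. The overlapping gene Gm6225 shares sequence with 6.6% of its 31-base stretches and had 20 to 35 counts per library, against 1000 to 1755 for Crem.

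Per length, the order of the 10 genes in wild type was Pde7a, Adcy7, Crem, Calcrl, Ramp1, Pde4a, Pde4d, Pde3b, Pde4b and Ramp3, with mean FPKM from 46.5 down to 1.32 and no overlap between neighbours. Some of the gaps were narrow, and Pde4a (9.28 to 10.2) and Pde4d (8.44 to 9.27) were nearly level. In the knockout the order was Pde7a, Crem, Adcy7, Pde4d, Calcrl, Pde4a, Pde4b, Ramp1, Pde3b and Ramp3, from 44.0 down to 8.11 FPKM. There the ranges of Pde7a and Crem overlapped, as did those of Calcrl and Pde4a, of Pde4b and Ramp1, and of Ramp1 and Pde3b. Levels below the top 3 were thus closer together in the knockout, between 7.73 and 13.9 FPKM, than in wild type, between 1.22 and 16.1. The lower end in both genotypes is Ramp3, picked for its rise. Without Ramp3 these levels were between 8.73 and 13.9 FPKM in the knockout and between 5.68 and 16.1 in wild type.

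The tables also give each gene a length in bases, which RSEM averages over the transcripts of the gene by their estimated abundance and which did not enter the choice of the genes. Of the 10 genes, Ramp1, Pde4a, Pde4b, Pde7a, Adcy7 and Crem have several transcripts in the tables and were tested. The length of Pde4b was 3621 and 3614 bases in wild type and 3691 and 3696 in the knockout. Its length was greater in both knockout libraries, by 77 bases on average, a log2 difference of 0.030 ± 0.002 (SE; limma, unadjusted p = 0.00073, adjusted p = 0.341). Of the 3741 genes tested for length, 0 passed the limma test at the adjusted threshold, 333 had an unadjusted p under 0.05, and the genotypes did not overlap in 33.9%. For the other 5 genes the lengths of the genotypes overlapped. Ramp1 varied most, with 2046 and 1886 bases in wild type and 2007 and 2109 in the knockout, and Crem was between 2056 and 2074 bases in all 4 libraries. No difference in length was thus called for any of these genes.

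Upstream of the cyclases, 14 genes were tested from a list of lymphocyte receptors meant to hold those that couple to Gs, of which 4 rose and 1 fell, 35.7% against 26.8% of all tested genes. The list holds at least 1 receptor gene, S1pr4, whose product couples mainly to other G proteins, and S1pr4 is 1 of the 4. Coupling to Gs was not measured for any receptor of the list. Gpr65, a proton-sensing receptor, had 50.4 and 59.0 CPM in wild type and 98.6 and 104.8 in the knockout (log2 0.89 ± 0.06, edgeR adjusted p = 8.96e-08). Gpr83, a receptor also known from regulatory T cells, rose by 0.43 ± 0.06 (adjusted p = 0.000105), and S1pr4, a sphingosine 1-phosphate receptor gene, rose by 0.31 ± 0.06 (adjusted p = 0.000818). The adenosine receptor gene Adora2b rose by 0.39 ± 0.10 (adjusted p = 0.0106), a call lost on dropping wild type replicate 2 (0.0572) or knockout replicate 1 (0.118), in DESeq2 (0.107) and with no filter (0.055), with a range of 0.0046 to 0.118. Ptger4, a prostaglandin E2 receptor gene, had 197.7 and 201.3 CPM in wild type and 171 and 158 in the knockout (log2 -0.28 ± 0.04, adjusted p = 0.000263). Ptger2 and Adora2a, the other well-known receptors of this kind, had log2 differences of 0.00 ± 0.09 each (adjusted p = 0.983 and 0.99).

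Of 12 tested G protein genes, 2 rose and 1 fell (25%, against 26.8% of all tested genes), and the median difference was 0.03. Gnas, which encodes the Gs subunit itself, had a log2 difference of 0.03 ± 0.03 (edgeR adjusted p = 0.532). Gnal, a relative of Gnas, had 9.89 and 10.8 CPM in wild type and 17.1 and 18.6 in the knockout (log2 0.78 ± 0.10, adjusted p = 4.42e-05), with 8.0% of its 31-base stretches shared, mostly with its overlapping neighbour Mppe1. Gnaz rose by 0.94 ± 0.26 (adjusted p = 0.0151), which was 0.0646, 0.111, 0.057 and 0.106 without wild type replicates 1 and 2 and knockout replicates 1 and 2, with a range of 0.011 to 0.171. Gng10 fell by 0.19 ± 0.06 (adjusted p = 0.037), and dropping knockout replicate 1, knockout replicate 2 or wild type replicate 2 gave 0.131, 0.177 or 0.258, with a range of 0.0247 to 0.258.

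Downstream, 2 of 9 tested genes of protein kinase A and its inhibitors rose and none fell (22.2%, against 26.8% of all tested genes). Pkib, an inhibitor of the kinase, had 7.92 and 9.21 CPM in wild type and 19.6 and 15.9 in the knockout (log2 1.05 ± 0.12, edgeR adjusted p = 1.79e-05). Prkacb, a catalytic subunit, rose by 0.22 ± 0.04 (adjusted p = 0.00147), and Prkaca, the other main catalytic subunit, had 0.09 ± 0.04 (adjusted p = 0.13). Of 14 tested anchoring proteins of the kinase, 2 rose and 3 fell (35.7%, against 26.8%). Akap13 had 489 and 493 CPM in wild type and 662 and 712 in the knockout (log2 0.48 ± 0.04, adjusted p = 4.98e-07) and Akap9 rose by 0.27 ± 0.04 (adjusted p = 0.00025), while Akap1, which tethers the kinase to mitochondria, fell by 0.44 ± 0.06 (adjusted p = 0.000106). Akap12 fell by 0.38 ± 0.10 (adjusted p = 0.0114), and dropping knockout replicate 1, knockout replicate 2 or wild type replicate 2 gave 0.0573, 0.165 or 0.118, with a range of 0.00542 to 0.165. The third gene that fell, Akap8, had a log2 difference of -0.14 ± 0.04 (adjusted p = 0.0214), and its adjusted p was 0.203, 0.0707 and 0.193 without wild type replicate 1, knockout replicate 1 and knockout replicate 2, with a range of 0.00524 to 0.203.

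Of 5 tested genes for other routes out of cAMP 2 passed (40%, against 26.8% of all tested genes). Rapgef4, an exchange factor that cAMP turns on, rose by 0.58 ± 0.16 (edgeR adjusted p = 0.0131), and Abcc4, which exports cAMP from cells, fell by 0.35 ± 0.09 (adjusted p = 0.00639). Rapgef4 had an adjusted p of 0.0736, 0.0521 and 0.131 without wild type replicate 1, wild type replicate 2 and knockout replicate 2, with a range of 0.00598 to 0.145. Abcc4 had 0.087, 0.109 and 0.0901 without wild type replicate 2, knockout replicate 1 and knockout replicate 2, with a range of 0.00143 to 0.109. Both calls thus depended on single libraries. Of the 11 tested CREB family genes and coactivators besides Crem, 3 rose and 1 fell (36.4%, against 26.8% of all tested genes). Creb3l2, a membrane-bound relative, rose by 0.71 ± 0.08 (adjusted p = 8.11e-06). Creb3l1 rose by 0.56 ± 0.12 (adjusted p = 0.00362), and its value was 0.0654 without knockout replicate 1, with a range of 0.000795 to 0.0654. The coactivator gene Crtc3 rose by 0.18 ± 0.05 (adjusted p = 0.0115), and its adjusted p was 0.159, 0.0702 and 0.135 without wild type replicate 2, knockout replicate 1 and knockout replicate 2, with a range of 0.00348 to 0.159. Atf1 fell by 0.20 ± 0.05 (adjusted p = 0.00678), which was 0.0551 without wild type replicate 2 and 0.11 without knockout replicate 2, with a range of 0.0017 to 0.11. Creb1 itself had -0.09 ± 0.04 (adjusted p = 0.127).

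Several genes known to be induced through CREB, of roles other than cAMP turnover, were also higher in the knockout. Besides Crem, Pde4b and Pde4d, 13 genes of this list were tested, of which 9 rose (Nr4a1, Nr4a2, Nr4a3, Fosb, Per1, Dusp1, Rgs2, Gem and Junb) and Cebpb fell, 76.9% in all against 26.8% of all tested genes. The median log2 difference of the 16 tested genes, those 3 included, was 0.49. The list was chosen with earlier results of these data known, so nothing is read from its share or its median. Nr4a2, an orphan nuclear receptor, had 21.9 and 24.5 CPM in wild type and 40.7 and 43.6 in the knockout (log2 0.86 ± 0.07, edgeR adjusted p = 7.39e-07). The clock gene Per1 had 124 and 122 CPM in wild type and 178 and 174 in the knockout (log2 0.52 ± 0.04, adjusted p = 3.05e-07), and the small GTPase gene Gem rose by 1.22 ± 0.11 (adjusted p = 1.97e-06). In contrast, Egr1 had 104 and 94.5 CPM in wild type and 98.0 and 58.3 in the knockout (log2 -0.35 ± 0.14, adjusted p = 0.0832), and Fos had 0.16 ± 0.14 (adjusted p = 0.433). Most genes of this list also respond to the antigen receptor and to other signals, and their response to cAMP was not measured. The whole list gave 13 calls, and 10 to 12 when 1 library was left out. The calls of Fosb (0.0255) and Dusp1 (0.0332) were lost on dropping each of the 4 libraries in turn (adjusted p from 0.0504 to 0.173 and from 0.0569 to 0.258). The call of Cebpb (0.0106) was lost without wild type replicate 1 (0.0872) and without knockout replicate 2 (0.153). The call of Nr4a1 (0.000551) was lost in DESeq2 (0.0679) and with no filter on low counts (0.0612), with adjusted p from 4.02e-08 to 0.0679 over all settings. That of Nr4a3 (0.000193) was lost on both FPKM scales (0.0684 and 0.0662), with a range of 1.14e-07 to 0.0684.

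**Figure D5:**
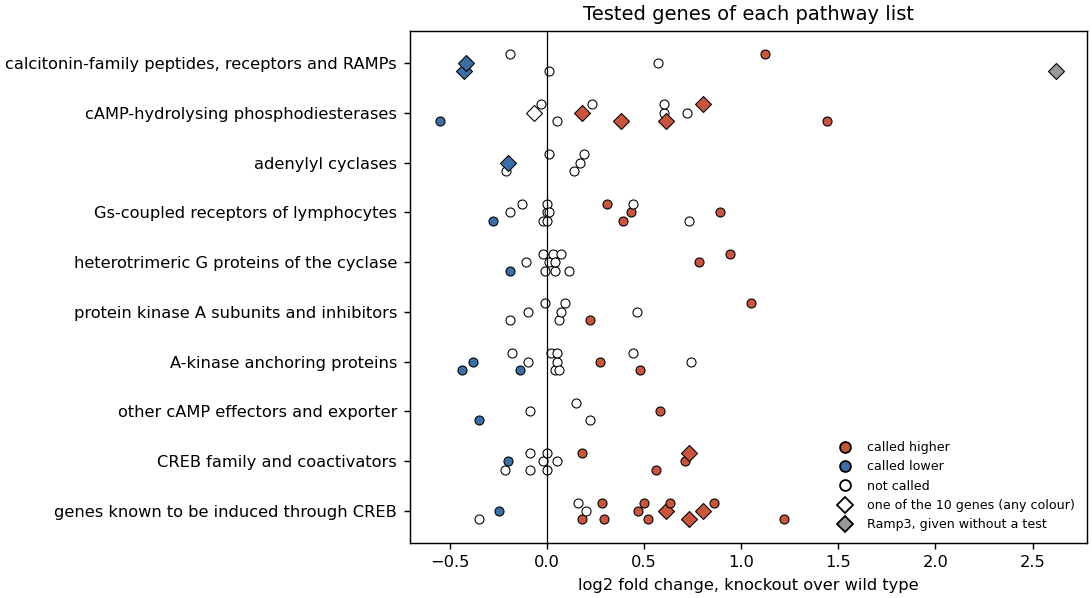
Fitted log2 fold change, knockout over wild type, of each tested gene in the 10 pathway lists (edgeR); red points were called higher, blue points lower and white points not called, and diamonds are the 10 genes described here, with Ramp3 in grey. Most G protein, protein kinase A and cyclase genes cluster near 0, and the genes known to be induced through CREB, Crem, Pde4b and Pde4d included, lie mostly to the right. The lists were chosen with earlier results of these data known, so nothing is read from this contrast.

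Over all 10 lists, 95 tested genes were not among the 10 described here, of which 25 rose and 9 fell, 35.8% in all against 26.8% of all tested genes. Of these 34 calls, 10 came from the list of genes known to be induced through CREB, which gave 13 of the 95 genes. The lists were chosen with earlier results of these data known, so nothing is read from the pooled share. The genes whose pattern was most like that of Ramp3 were found from log2 CPM centred on each gene's mean over the 4 libraries, among the 9892 other genes whose mean reached 5 CPM. The nearest were Gdpd3, a lysophospholipase D gene (Euclidean distance 0.57), Il12rb2, an interleukin 12 receptor chain (0.63), Havcr2, which encodes the inhibitory receptor TIM-3 (0.78), 4932438H23Rik (1.06) and Tgfb3, a TGF-beta ligand (1.13). Their levels are a description, since they were chosen for their likeness. Gdpd3 had 3.48 and 3.34 CPM in wild type and 16.8 and 14.1 in the knockout, and Havcr2 had 2.32 and 2.08 in wild type and 11.6 and 7.74 in the knockout. The value of Il12rb2 is uncertain, because 38.6% of its 31-base stretches, on either strand, occur in other listed genes, mostly the overlapping Serbp1.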

How the data were processed

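RNA was sequenced from 4 libraries, 2 per genotype, with HiSeq chemistry by a service provider, per the labels' protocols. The submitters' processing notes name Bowtie and RSEM, without versions, and GRCm38 (mm10). Per the file headers, the authors deposited a length, an expected count and an FPKM value (counts scaled to length and depth) per gene. Not given in the sources used here are the strand setting and the annotation release. A gene missing from a table was set to 0 there. The lowest FPKM listed was 0.01.

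Expected counts were rounded and tested with edgeR 4.0.16 in R 4.3.3 (quasi-likelihood, TMM, filterByExpr with minimum count 10 and minimum total 15, Benjamini-Hochberg). An SE is the size of the log2 fold change over the root of the F statistic. CPM use TMM-scaled library sizes. Lengths were tested as log2 values with limma 3.58.1 over the 3741 tested genes whose length varied between libraries by over 0.01 bases. No permutation of 2 against 2 libraries can reach 0.05. Counts were simulated for this comparison over 12677 genes, with a dispersion common to all genes. There edgeR found 82% of the genes set to 1.5-fold and 92% of those set to 2-fold, and called 5 unchanged genes. In simulated lengths for the same comparison over 3741 genes, limma recovered 94% of 200 genes shifted by 0.5 on the log2 scale and called 9 unchanged genes. The length differences of the members were at most 0.067 on that scale, and recovery of shifts of that size was not simulated. Alternatives were DESeq2 1.42.0, other factors, limma-voom, other filters, FPKM with pseudocounts of 0.1 and 1, leaving out each library, and the replicate number as a block. Shared sequence was counted as 31-base stretches of GENCODE M21 transcripts. Coordinates are from the RefSeq table of GRCm38.p6, which matched 17440 gene identifiers.

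The members and the lists were chosen with earlier results of these data known. Named genes are the 10 members, for each list the called genes with the smallest adjusted p (at most 4), the 5 genes most like Ramp3, the most abundant markers of other cells, Bfar and Il9. The other genes named (Ramp2, Calcr, Adm, Adm2, Pde4c, Adcy3, Adcy6, Adora2a, Adora2b, Ptger2, Gnas, Prkaca, Akap8, Crtc3, Creb1, Gem, Egr1, Fos, Fosb, Dusp1, Cebpb, Cd5, Xcr1 and other genes induced through CREB) were named after their values were seen.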

Additional observations from a re-analysis of the deposited data

How the results depend on the processing

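The direction of each of the 10 genes was the same in all 13 alternatives, and Calcrl, Pde3b, Pde4b, Pde4d, Adcy7 and Crem passed in each. Ramp3 moved with log2(FPKM + 1) to 1.97, and lay between 2.50 and 2.74 when 1 library was left out. Ramp1 lay between -0.52 and -0.34 when 1 library was left out (adjusted p = 0.0511 without knockout replicate 1). Pde4a missed the threshold in DESeq2 (adjusted p = 0.221) and in edgeR without the low-count filter (0.154). It also missed it in limma on log2(FPKM + 0.1) (0.154) and log2(FPKM + 1) (0.157). Its log2 differences in these settings were 0.18, 0.18, 0.18 and 0.16, and lay between 0.11 and 0.25 when 1 library was left out.

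Over all genes, 3398 passed (1728 higher, 1670 lower). DESeq2 gave 1707 (921 higher, 786 lower), no filter gave 1928 (1051 and 877), and log2(FPKM + 0.1) gave 1151 higher. Leaving out 1 library gave 1441 to 2355 (812 to 1243 higher, 629 to 1112 lower). Of the list genes 43 passed (31 higher, 12 lower), where Ramp3, picked for its rise, is counted in this and in the calcitonin-family counts. DESeq2 gave 28 with 6 lower, no filter gave 6 lower, and leaving out 1 library gave 29 to 37 (24 to 28 higher, 5 to 9 lower). By list, edgeR called 3 G protein genes, 5 anchoring proteins, 2 other effectors and 5 CREB family genes, and DESeq2 called 1, 3, 1 and 3. With no filter 3 anchoring proteins, 0 other effectors and 3 CREB family genes passed, with log2(FPKM + 0.1) 3 anchoring proteins and 0 other effectors, and with log2(FPKM + 1) 3 and 1. Leaving out 1 library gave 2 to 4 calcitonin-family genes, 1 to 2 cyclases, 1 to 2 G protein genes, 3 to 4 anchoring proteins, 0 to 1 other effectors and 3 to 5 CREB family genes. The cause of these differences was not tested.

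Labels number the libraries 1 and 2 in each genotype. Deviations of wild type 1 and knockout 1 from their group means correlated at 0.023 over 12677 genes. This check does not show that the numbers pair the samples, and it cannot exclude a pairing. With the replicate number as a block, 3952 genes passed (1977 higher, 1975 lower), 48 of the list genes passed, 2 cyclases among them, and the log2 difference of Ramp3 was 2.62. No length passed under any of its 6 alternatives, with the block included. A gene with few counts, such as Calca, can show only large differences at this depth.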
